A study of Mus musculus with 10 samples.

Results

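The RGD-binding integrin subunits are the 9 genes whose products make up the integrins that recognise the arginine-glycine-aspartate (RGD) motif of matrix proteins. They were taken by symbol from the deposited gene table, in which each has 1 row, and are 9 of its 55359 genes: 4 alpha subunits (Itga5, Itgav, Itga8 and Itga2b) and 5 beta subunits (Itgb1, Itgb3, Itgb5, Itgb6 and Itgb8). The rule that picks them reads names alone, though the family was chosen with earlier results of these data known. 7 of the 9 had a mean of at least 0.5 FPKM (the count scaled to the length of the gene and to the total of the library) over all libraries and were tested, and Itga8 and Itga2b lay below that level.

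The study searched for a receptor of FNDC1, a fibronectin type III domain protein secreted by myoblasts, and RNA-sequencing was part of that search. C2C12 cells are an immortal mouse myoblast line that fuses into myotubes when serum is lowered. They were transfected with 100 nM siRNA, either against Fndc1 (si-Fndc1, 5 libraries, labelled as knockdown) or a control siRNA (si-Control, 5 libraries). The sample records give 20% fetal bovine serum for growth, whereas the methods of the study give a lower percentage for C2C12 cells. The labels give collection after 4 days in 2% horse serum, whereas the design text of the series gives 48 h after transfection. No label says whether the 5 libraries of a group came from separate cultures, so the p-values below measure the spread between these libraries, which may be technical, and 1 siRNA and 1 cell line stand behind every comparison.

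An integrin is a heterodimer of an alpha and a beta subunit, and the pairing sets which ligand is bound. Itgb1 encodes the beta subunit shared by many alphas in muscle, Itga5 the alpha chain of the classical fibronectin receptor, and Itgav an alpha chain that can join any of several betas to bind vitronectin, fibronectin, osteopontin and latent TGF-beta. A subunit without a partner is held back in the endoplasmic reticulum, so the scarcer chain of a pair bounds how much of that pair a cell can assemble. RNA levels are used here as the only measure, and protein, surface level and binding were not measured in these files.

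Total counts ran from 66771605 to 75995168 in si-Control and from 56332844 to 72839369 in si-Fndc1. The targeted gene was at 27.8 ± 2.04 FPKM (mean ± SD, n = 5) in si-Control and 20.9 ± 1.70 FPKM (n = 5) in si-Fndc1, without overlap and with a log2 fold change of -0.40 ± 0.066 (SE, edgeR adjusted p = 0.000934). Of 13548 genes tested with edgeR, 4663 (34.4%) passed an adjusted p of 0.05, 2325 of them lower (17.2%) and 2338 higher (17.3%) in si-Fndc1. Of the 13 skeletal muscle markers 3 rose, 0 fell and 9 of the 12 tested did not pass, and their summed level was 4541 to 5099 FPKM in si-Control and 4330 to 5127 FPKM in si-Fndc1. All 11 tested hepatocyte markers of the 13 found in the table were higher in si-Fndc1, where the 13 summed to 51.9 to 182 FPKM against 0.0455 to 6.18 FPKM in si-Control. These genes mark a cell type other than the labelled one, none of the 13 was at 0 counts in all libraries, and their part in the subunit values was not tested. None of the 9 platelet and 8 endothelial markers reached the level for testing, with sums of 0.349 to 0.762 and 0.227 to 0.369 FPKM in si-Control and of 0.396 to 2.77 and 0.235 to 0.695 FPKM in si-Fndc1. Pf4, Gp6, Cdh5 and Emcn were at 0 counts in every library. Of the 8 markers each for epithelium, leukocytes and fibroblasts, 2, 1 and 4 were tested, and of these 0, 0 and 1 (Dcn) rose and none fell. Their sums were 6.75 to 8.22, 0.706 to 1.26 and 19.0 to 19.9 FPKM in si-Control and 6.59 to 8.31, 0.708 to 1.17 and 22.6 to 25.3 FPKM in si-Fndc1, and Epcam, Krt5, Ptprc, Cd3e and Tcf21 were at 0 counts in every library.

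In si-Control Itgb1 was highest at 287 ± 15.5 FPKM, followed by Itgb5 at 148.5 ± 7.61, Itga5 at 59.7 ± 1.65, Itgb3 at 11.7 ± 0.401, Itgav at 9.82 ± 3.87, Itgb6 at 2.37 ± 0.213, Itgb8 at 1.49 ± 0.167, Itga2b at 0.488 ± 0.068 and Itga8 at 0.025 ± 0.016 (FPKM, mean ± SD, n = 5 each). Every neighbour in this order was separated without overlap in both groups except Itgb3 and Itgav. Those 2 overlapped in si-Control, where Itgav exceeded Itgb3 in 2 libraries, and did not overlap in si-Fndc1, where Itgb3 was 1.61 times Itgav. The same order of means held in si-Fndc1. A gene's FPKM rests on the fixed length that the deposited values imply, which was 1.15 to 1.79 times the longest GENCODE vM1 transcript for these genes, so levels of different subunits compare only as far as those lengths are right.

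**Figure D1:**
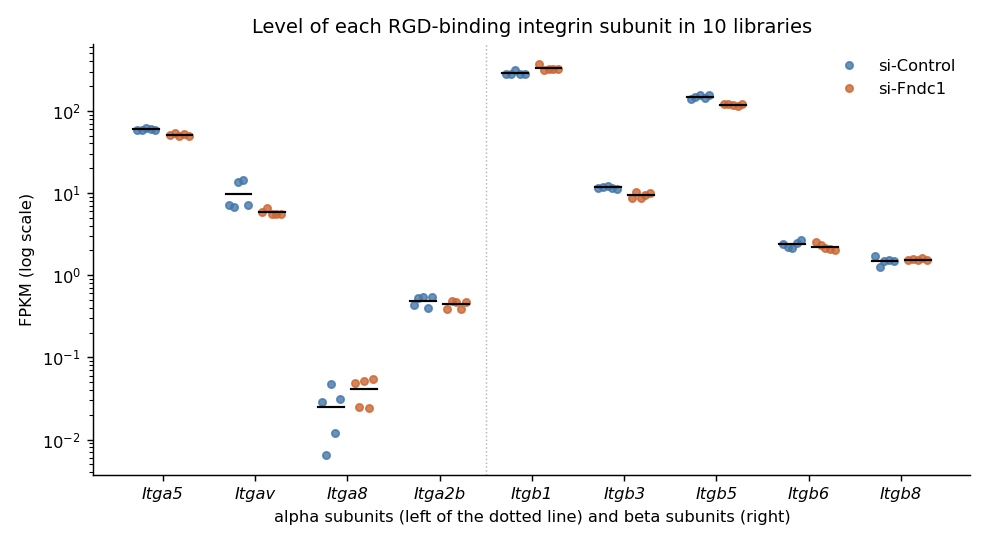
FPKM (log axis) of each subunit in each of 10 libraries, with si-Control in blue, si-Fndc1 in orange and a black line at each group's mean. Itgb1, Itgb5 and Itga5 lie above 48 FPKM in every library, while Itga2b and Itga8 lie at 0.546 FPKM or less in every library.

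The bases before the start sites of Itga5, Itgb5, Itgav and Itgb1 are shown. Itgb1, Itgb5 and Itga5 had the highest levels, Itgav had the biggest fold change, and no window was found for Itgb3. As given below, in the edgeR fit over all libraries Itga5, Itgb5 and Itgav fell and Itgb1 rose. Of these 4 calls only that of Itgb5 held in every fit. The windows come from RefSeq on build GRCm38.p6, 250 bases upstream of the start, 5' to 3' on the gene's strand. Gene coordinates given further below are as listed and do not line up with the positions of these windows. Capitals mark GGGCGG, the GC box that Sp1-type factors bind, and CAGCTG, an E-box bound by MyoD-type factors, searched on both strands, and the motifs do not overlap each other.

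Itga5, chr15:103366792-103367041, minus strand: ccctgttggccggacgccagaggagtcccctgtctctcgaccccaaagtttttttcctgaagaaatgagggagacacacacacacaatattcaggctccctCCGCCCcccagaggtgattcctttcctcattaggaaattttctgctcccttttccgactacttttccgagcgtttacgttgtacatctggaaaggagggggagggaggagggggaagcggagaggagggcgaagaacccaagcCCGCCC

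Itgb5, chr16:33829415-33829664, plus strand: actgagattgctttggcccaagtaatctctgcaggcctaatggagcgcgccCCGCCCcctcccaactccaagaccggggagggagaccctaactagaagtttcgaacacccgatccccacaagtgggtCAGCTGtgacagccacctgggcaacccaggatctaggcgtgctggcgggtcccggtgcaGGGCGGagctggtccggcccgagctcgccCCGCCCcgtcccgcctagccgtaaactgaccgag

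Itgav, chr2:83724147-83724396, plus strand: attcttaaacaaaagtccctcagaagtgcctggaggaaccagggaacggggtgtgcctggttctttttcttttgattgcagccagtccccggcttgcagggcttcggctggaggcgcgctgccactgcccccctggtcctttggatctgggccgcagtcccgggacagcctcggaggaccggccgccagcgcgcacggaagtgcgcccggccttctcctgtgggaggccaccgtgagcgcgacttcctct

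Itgb1, chr8:128685404-128685653, plus strand: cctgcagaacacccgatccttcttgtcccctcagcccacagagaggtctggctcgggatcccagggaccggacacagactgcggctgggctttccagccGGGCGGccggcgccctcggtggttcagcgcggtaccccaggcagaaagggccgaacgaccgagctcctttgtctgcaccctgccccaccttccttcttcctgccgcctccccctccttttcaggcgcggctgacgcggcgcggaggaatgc

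Itga5 held 2 GC boxes, Itgb5 held 3 GC boxes and 1 E-box, Itgb1 held 1 GC box, and Itgav held neither. Among all 32851 RefSeq windows of this length 32.7% held the GC box and 13.0% the E-box. The GC content of these windows was 55.6% for Itga5, 65.2% for Itgb5, 64.4% for Itgav and 68.0% for Itgb1, against a median of 52.4%. Windows were found for 8 of the 9 subunits, and the window of Itga2b also held 1 E-box while those of Itga8, Itgb6 and Itgb8 held neither motif.

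Among the alpha subunits, Itga5 and Itgav were lower in si-Fndc1, with no overlap between the groups. Of the 7 tested subunits 4 fell (Itga5, Itgav, Itgb3 and Itgb5), 1 rose (Itgb1) and 2 (Itgb6 and Itgb8) did not pass the test, beside 17.2% of all tested genes lower and 17.3% higher. For 4 of the 7 the normalised counts of the groups did not overlap, beside 25.1% of all tested genes. The median log2 fold change was -0.22 over the 7 and 0.0043 over all tested genes.

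Itga5 (ENSMUSG00000000555, listed at chromosome 15, 103252713 to 103275190, minus strand) pairs with Itgb1 alone. It was at 58.2, 58.8, 62.3, 60.3 and 58.8 FPKM in si-Control replicates 1 to 5. In si-Fndc1 replicates 1 to 5 it was at 51.4, 53.2, 49.9, 51.9 and 48.9 FPKM. The groups did not overlap, with all of si-Fndc1 below all of si-Control, and the whole spread within either group was smaller than the gap between the group means. The mean in si-Fndc1 was 0.856 times that in si-Control, with a log2 fold change of -0.22 ± 0.033 (SE, edgeR adjusted p = 0.00056) and a two-sided exact permutation p of 0.00794 on FPKM, the smallest that 5 against 5 libraries can give. The fall kept its call when any 1 library was left out. In bulk RNA a lower level in each cell cannot be told apart from fewer cells that express the gene.

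Itgav (ENSMUSG00000027087, chromosome 2, 83554741 to 83637260, plus strand) is the alpha chain shared by 5 of the RGD-binding pairs. Of the 7 tested subunits it had the biggest fold change over all libraries and, relative to the mean, the widest spread in si-Control. In si-Control replicates 1 to 5 it was at 7.20, 6.75, 13.6, 14.5 and 7.07 FPKM. In si-Fndc1 replicates 1 to 5 it was at 5.94, 6.62, 5.52, 5.59 and 5.59 FPKM. si-Control replicates 3 and 4 stood at about the same high level and the other 3 si-Control libraries close together at 7.01 ± 0.234 FPKM (SD, n = 3), of which the lowest was only just above the highest si-Fndc1 library. The log2 fold change was -0.74 ± 0.22 (SE, edgeR adjusted p = 0.0241), and the exact permutation p on FPKM was 0.00794. This call was lost without si-Control replicate 3 (log2 fold change -0.59, edgeR adjusted p = 0.0593), without si-Control replicate 4 (-0.56, edgeR adjusted p = 0.0536), and without si-Fndc1 replicate 3, 4 or 5 (edgeR adjusted p = 0.0512, 0.0512 and 0.0518). With si-Control replicates 3 and 4 both left out, an alternative chosen after seeing the data, the fall was -0.26 ± 0.064 (SE) with an edgeR adjusted p of 0.0209. A lower level of Itgav in si-Fndc1 was thus also called without the 2 high libraries, at -0.26 in place of -0.74.

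Itga8 (ENSMUSG00000026768, chromosome 2, 12111443 to 12306733, minus strand), a partner of Itgb1 in smooth muscle and kidney, was barely detected. Counts per library were 4 to 28 in si-Control against 15 to 30 in si-Fndc1, or 0.00644 to 0.0479 and 0.024 to 0.0552 FPKM, and the groups overlapped. Itga2b (ENSMUSG00000034664, chromosome 11, 102344123 to 102360948, minus strand), the platelet partner of Itgb3, had 178 to 238 counts in si-Control against 165 to 219 in si-Fndc1. Its levels were 0.399 to 0.546 and 0.384 to 0.484 FPKM, again with overlap. When genes with any count were tested, the log2 fold changes were 0.70 ± 0.51 (SE, edgeR adjusted p = 0.389) for Itga8 and -0.14 ± 0.14 (SE, edgeR adjusted p = 0.565) for Itga2b, so neither differed by more than the spread between libraries at this depth.

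Itgb1 (ENSMUSG00000025809, chromosome 8, 129412135 to 129459681, plus strand), the most abundant subunit, was the only tested member that rose. It was at 278, 284, 315, 279 and 279.5 FPKM in si-Control replicates 1 to 5. In si-Fndc1 replicates 1 to 5 it was at 376, 311, 318, 322 and 320.1 FPKM. 4 of 5 si-Fndc1 libraries lay above every si-Control library, and si-Control replicate 3 was just above the lowest si-Fndc1 library, so the groups overlapped by that 1 library. The log2 fold change was 0.21 ± 0.055 (SE, edgeR adjusted p = 0.0139), the mean level was 1.15 times that of si-Control, and the exact permutation p on FPKM was 0.0159. The rows of the table sum all transcripts of a gene, so the A and D splice forms of the Itgb1 tail, of which D is the muscle form, are not separated.

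Itgb5 (ENSMUSG00000022817, chromosome 16, 33650035 to 33769708, plus strand), a partner of Itgav in vitronectin binding, had the smallest p of the members. Its FPKM was 141, 147, 155, 142 and 158 in si-Control replicates 1 to 5. In si-Fndc1 replicates 1 to 5 it was 120.0, 122, 116, 114 and 119.9. The groups did not overlap, the mean in si-Fndc1 was 0.797 times that in si-Control, and the log2 fold change was -0.32 ± 0.038 (SE, edgeR adjusted p = 0.000146). Itgb3 (ENSMUSG00000020689, chromosome 11, 104498826 to 104561302, plus strand), which joins Itgav or Itga2b, was at 11.4, 11.9, 12.3, 11.5 and 11.3 FPKM in si-Control replicates 1 to 5. In si-Fndc1 replicates 1 to 5 it was at 8.74, 10.2, 8.75, 9.51 and 9.86 FPKM. Here too every si-Fndc1 library was below every si-Control library, at 0.807 times the mean, with a log2 fold change of -0.30 ± 0.049 (SE, edgeR adjusted p = 0.000865). Both calls held when any 1 library was left out.

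Itgb6 and Itgb8 encode the beta chains that, with Itgav, activate latent TGF-beta, and both were low. Itgb6 (ENSMUSG00000026971, chromosome 2, 60428636 to 60552987, minus strand), best known in epithelium, was at 2.12 to 2.67 FPKM in si-Control and 2.04 to 2.51 FPKM in si-Fndc1. Itgb8 (ENSMUSG00000025321, chromosome 12, 119121757 to 119202537, minus strand) was at 1.25 to 1.72 and 1.51 to 1.60 FPKM. Both pairs of ranges overlapped, and the log2 fold changes of -0.09 ± 0.080 (SE, edgeR adjusted p = 0.404) and 0.06 ± 0.075 (SE, edgeR adjusted p = 0.545) did not pass. On FPKM the exact permutation p of Itgb8 was 0.508, but 0.0159 without si-Control replicate 1, its highest library, and 0.984 without si-Control replicate 2, its lowest.

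Other genes listed over the same coordinates added little. A microRNA gene inside Itga5 had at most 9 counts in a library, an antisense transcript of Itgav (Gm13684) at most 22, and 1 antisense transcript of Itga8 at most 4. No listed gene overlapped any of the 5 beta subunits.

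Several of these calls moved with a correction for base composition. Across 11185 tested genes with a transcript in GENCODE vM1 (82.6% of those tested), the log2 fold change fell with GC content (Spearman's rho = -0.52 across genes, which are not independent replicates). The GC content was 57.6% for Itga5, 57.7% for Itgb5 and 51.9% for Itgb3, which fell, and 44.9% for Itgb1, which rose, while Itgav at 43.6% fell against that order. With the trend of each library over GC content and length removed, the log2 fold change of Itga5 was -0.02 ± 0.025 (SE, edgeR adjusted p = 0.650) and that of Itgb1 0.07 ± 0.057 (SE, edgeR adjusted p = 0.421), and neither passed. Itgav, Itgb3 and Itgb5 still passed, 3 of the 7 beside 22.7% of all genes in that fit (11.4% lower and 11.3% higher), at -0.79, -0.23 and -0.15 (edgeR adjusted p = 0.0244, 0.00797 and 0.0109). Itgb8 changed sign to -0.04 and Itgb6 stood at -0.19 (edgeR adjusted p = 0.712 and 0.103). Quantile-normalised log2(FPKM + 1) values tested with limma also left Itgb1 without a call, at 0.02 (limma adjusted p = 0.795).

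**Figure D2:**
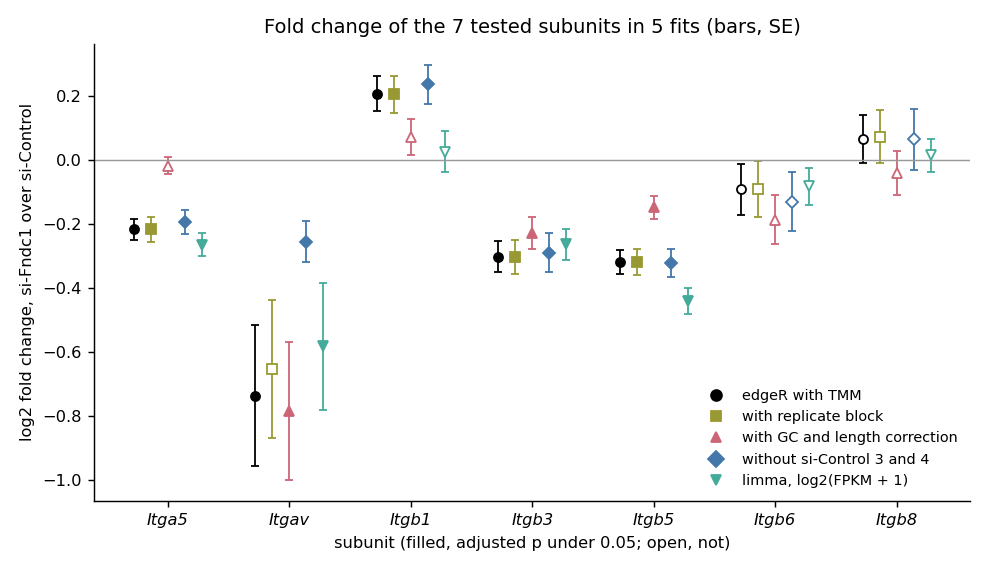
Log2 fold change of each tested subunit, si-Fndc1 over si-Control, with SE bars in 5 fits, where filled symbols have an adjusted p under 0.05. Itgb3 and Itgb5 are below 0 and filled in every fit, while Itga5 and Itgb1 are open with the GC and length correction and Itgav moves from -0.74 to -0.26 without 2 si-Control libraries.

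As shares of the family, the alpha side was dominated by Itga5 and the beta side by Itgb1 and Itgb5. Itga5 made up 85.5% ± 4.30 of the alpha sum in si-Control and 89.0% ± 0.522 in si-Fndc1, and Itgav 13.8% ± 4.37 and 10.2% ± 0.495 (mean ± SD, n = 5). The group ranges of both overlapped, since the share of Itgav was 19.2% at its highest in si-Control but 10.2% at its lowest there, within the 9.66% to 10.96% of si-Fndc1. Without si-Control replicates 3 and 4 the difference in the share of Itgav shrank from -3.58 to -0.41 percentage points, and that of Itga5 from 3.47 to 0.36. Itga2b and Itga8 together stayed under 1% of the alpha sum in every library.

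On the beta side the 3 largest shares parted without overlap. In si-Control Itgb1 made up 63.6% ± 1.14 of the beta sum, from 61.7% to 64.8%. In si-Fndc1 it made up 71.4% ± 1.59, from 69.6% to 73.9%. Itgb5 made up 32.9% ± 1.13 and 25.7% ± 1.37, and Itgb3 2.59% ± 0.072 and 2.05% ± 0.219 (mean ± SD, n = 5). The highest share of Itgb5 in si-Fndc1, 27.2%, was below the lowest in si-Control, 31.9%. Itgb6 and Itgb8 each stayed under 0.6% with overlapping groups. Shares are parts of a whole, so these differences are not separate pieces of evidence.

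**Figure D3:**
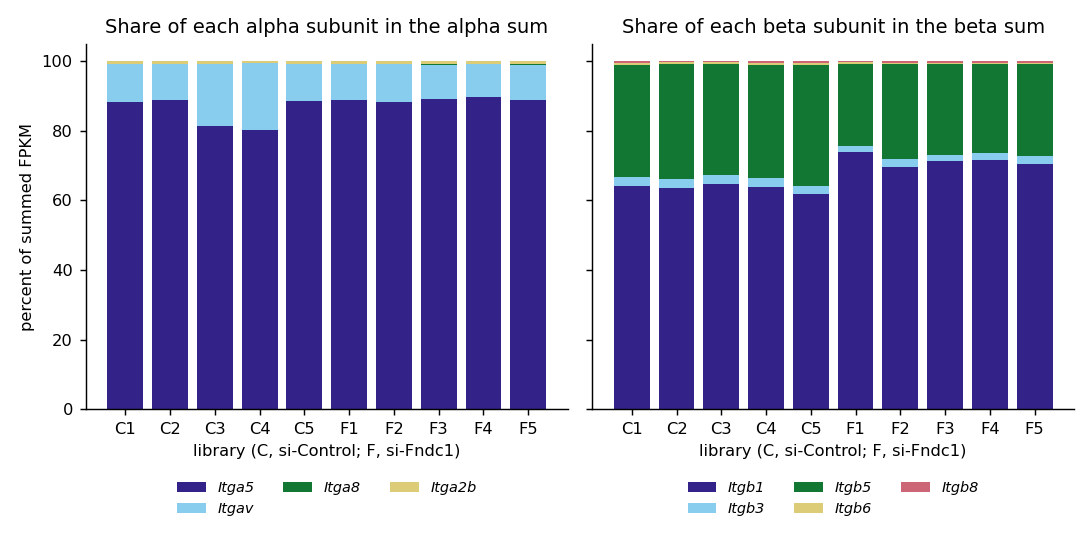
Percent of the summed FPKM of the 4 alpha subunits (left) and of the 5 beta subunits (right) in each library, with C for si-Control and F for si-Fndc1. Itgb1 takes 61.7% to 64.8% of the beta sum in C libraries and 69.6% to 73.9% in F libraries. Itgav takes more of the alpha sum in C3 and C4 than in any other library.

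The alpha sum was lower in si-Fndc1 and the beta sum overlapped. The alpha sum was 70.0 ± 5.34 FPKM in si-Control and 57.4 ± 2.06 FPKM in si-Fndc1 without overlap, and the beta sum was 451 ± 20.5 and 461 ± 26.6 FPKM with overlap. There were therefore 6.46 ± 0.408 times as much beta as alpha in si-Control and 8.04 ± 0.522 times in si-Fndc1 (mean ± SD, n = 5), again without overlap. With levels per kilobase of the longest GENCODE vM1 transcript the same ratios were 6.00 ± 0.457 and 7.50 ± 0.484. The shares, sums and these ratios use FPKM without the GC and length correction and were not recomputed with it. With it, the log2 fold changes were -0.02 for Itga5, -0.79 for Itgav, 0.07 for Itgb1 and -0.15 for Itgb5. Without it they were -0.22, -0.74, 0.21 and -0.32.

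The ratios within a library restate the shift in the betas. They were tested, but they use the same values and are not separate evidence. The log2 ratio of Itgb5 to Itgb1 was -0.95 ± 0.075 in si-Control and -1.47 ± 0.11 in si-Fndc1, and that of Itgb3 to Itgb1 was -4.62 ± 0.040 and -5.13 ± 0.19 (mean ± SD, n = 5). Each differed with an exact permutation p of 0.00794, which is 0.0119 after Benjamini-Hochberg adjustment over the 3 ratios tested, and the groups did not overlap. In the fitted values these differences were -0.53 and -0.51 without and -0.22 and -0.30 with the GC and length correction, for which the ratio itself was not tested. The log2 ratio of Itgav to Itga5 was -2.69 ± 0.52 in si-Control and -3.13 ± 0.078 in si-Fndc1. It overlapped and did not pass, with a difference of -0.44, an exact permutation p of 0.0714 and the same value after adjustment. The exact permutation p was 0.0238 to 0.0476 when si-Control replicate 1, 2 or 5 was left out, 0.0714 and 0.0794 without si-Control replicate 3 or 4, and 0.135 to 0.238 when any 1 si-Fndc1 library was left out. Without si-Control replicates 3 and 4 together the difference was -0.064 (exact permutation p = 0.286). Its fitted difference was -0.52 without and -0.77 with the GC and length correction, so the correction moved it away from 0 and the beta ratios toward 0.

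The 8 RGD-binding pairs divide into those in which the alpha and those in which the beta subunit was the scarcer. In the fibronectin receptor, Itga5 with Itgb1, Itga5 was lower in all 10 libraries, and Itgb1 was 4.63 to 7.30 times as high. The lower level was 59.7 ± 1.65 FPKM in si-Control and 51.1 ± 1.70 FPKM in si-Fndc1, so on uncorrected FPKM the bound of this pair was lower in every si-Fndc1 library, while the mean of Itgb1 was higher there. Itgav was lower than Itgb1 by 19.3 to 63.2 times and lower than Itgb5 by 9.83 to 22.3 times, in every library. Both of these pairs therefore took the level of Itgav as their bound, 9.82 ± 3.87 FPKM in si-Control and 5.85 ± 0.458 FPKM in si-Fndc1, and the same chain is claimed by all 5 of its beta partners at once.

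Itgav with Itgb3 was the 1 pair whose scarcer subunit differed between libraries. Itgav was below Itgb3 in 3 si-Control and all 5 si-Fndc1 libraries. In si-Control replicates 3 and 4 Itgav was above Itgb3, at 13.6 against 12.3 FPKM and 14.5 against 11.5 FPKM. The lower of both was 8.95 ± 2.68 FPKM in si-Control and 5.85 ± 0.458 FPKM in si-Fndc1 without overlap. Per kilobase of the longest vM1 transcript Itgav was below Itgb3 in 7 of 10 libraries and per kilobase of coding sequence in 8, so which chain is scarcer here depends on the length used, while for the other 7 pairs both lengths gave the same lower subunit in every library.

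With Itgb6 and Itgb8 the beta subunit was lower in all 10 libraries, by 2.37 to 6.43 times and 3.49 to 9.59 times. The bounds, 2.37 ± 0.213 against 2.21 ± 0.200 FPKM for Itgb6 and 1.49 ± 0.167 against 1.55 ± 0.042 FPKM for Itgb8, overlapped between the groups. Itga2b was 18.3 to 28.8 times below Itgb3, and Itga8 at least 5797 times below Itgb1, so the platelet pair and the Itga8 pair were bounded at under 0.55 and under 0.06 FPKM. The summed level of the 4 betas that take Itgav but not Itga5 (Itgb3, Itgb5, Itgb6 and Itgb8) was 164 ± 7.70 FPKM in si-Control and 132 ± 3.62 FPKM in si-Fndc1, without overlap. That sum was 18.7 ± 6.52 and 22.6 ± 1.25 times the level of Itgav, with overlap.

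**Figure D4:**
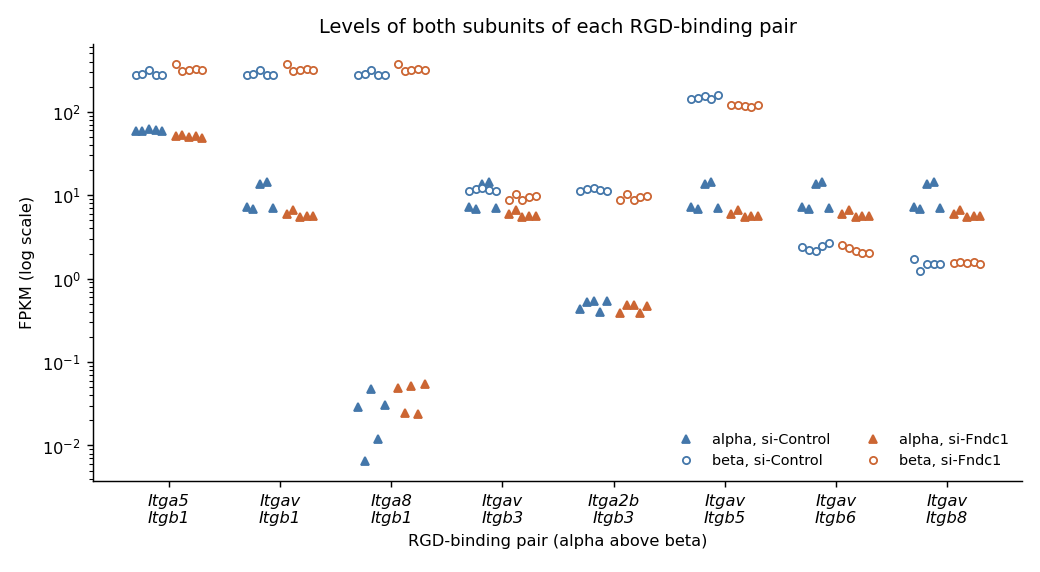
FPKM (log axis) of the alpha subunit (triangles) and the beta subunit (open circles) of each RGD-binding pair in each library, with si-Control in blue and si-Fndc1 in orange. Triangles lie below circles for Itga5 and Itgav with Itgb1 and for Itgav with Itgb5, above them with Itgb6 and Itgb8, and cross only for Itgav with Itgb3, in 2 si-Control libraries.

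Itgb1 also joins alphas that do not read RGD, and these were the larger claim on it. The 9 other Itgb1 partners (Itga1, Itga2, Itga3, Itga4, Itga6, Itga7, Itga9, Itga10 and Itga11) summed to 241 ± 12.6 FPKM in si-Control and 210.1 ± 13.2 FPKM in si-Fndc1. Itga7, the laminin receptor chain of muscle, alone made up 60.7% ± 1.40 and 61.5% ± 0.978 of all Itgb1 partners. Itga5 made up 19.2% ± 0.894 and 19.1% ± 0.612, which overlapped. Of the 6 that were tested, 4 fell (Itga3, Itga7, Itga10 and Itga11), 0 rose and 2 did not pass, beside 17.2% of all tested genes lower and 17.3% higher, with a median log2 fold change of -0.17. With the GC and length correction none of the 6 passed by edgeR, beside 22.7% of all genes. Itgb1 was 0.925 ± 0.063 times the sum of all its alpha partners in si-Control, from 0.854 to 0.990, and 1.24 ± 0.10 times in si-Fndc1, from 1.08 to 1.36. On the lengths that the deposited values imply, the RNA of Itgb1 was thus below that of its summed partners in every si-Control library. It was above that sum in every si-Fndc1 library. Whether this crossing holds with other gene lengths or with the GC and length correction was not tested. With that correction the log2 fold change of Itgb1 was 0.07 in place of 0.21. The median over the 6 tested partners outside the RGD family was -0.01 in place of -0.17. The fitted difference of Itgb1 to Itga5 was 0.42 on the log2 scale without and 0.09 with the GC and length correction.

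The high values of Itgav in si-Control replicates 3 and 4 had few parallels. The lower of these libraries was 1.88 times the highest of the other 3 si-Control libraries in normalised counts, and 16 of 13548 tested genes, Itgav included, showed at least that gap. The other subunits with over 1 FPKM differed by 0.941 to 1.06 times between the means of these 2 libraries and of the other 3. Over deviations from the group means (Pearson's r over 10 libraries, given as a description) the gene most like Itgav was Rbfox2, a splicing regulator, with r = 0.991. Rbfox2 was at 157, 151, 372, 407 and 167 CPM (counts scaled to the library total) in si-Control replicates 1 to 5 and at 342 to 394 CPM in si-Fndc1, so it shared the 2 high libraries with Itgav but was high in all of si-Fndc1, where Itgav was low. Next came 2 microRNA genes listed without a symbol, with 40 and 73 and with 37 and 87 counts in si-Control replicates 3 and 4 and listed at 1 count in each of the other 8. Their FPKM ran from 0.0914 to 0.179 and from 0.092 to 0.179 over those 8 libraries, a wider spread than that of the library totals, so whole numbers this low may be rounded estimates. Then came Cxxc5 and Wdr3 (r = 0.910 and 0.901). Over the levels themselves those microRNA genes (r = 0.956 and 0.952), Dmpk, Fam189b and Tbl3 (r = 0.931, 0.925 and 0.924) were most like Itgav.

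**Figure D5:**
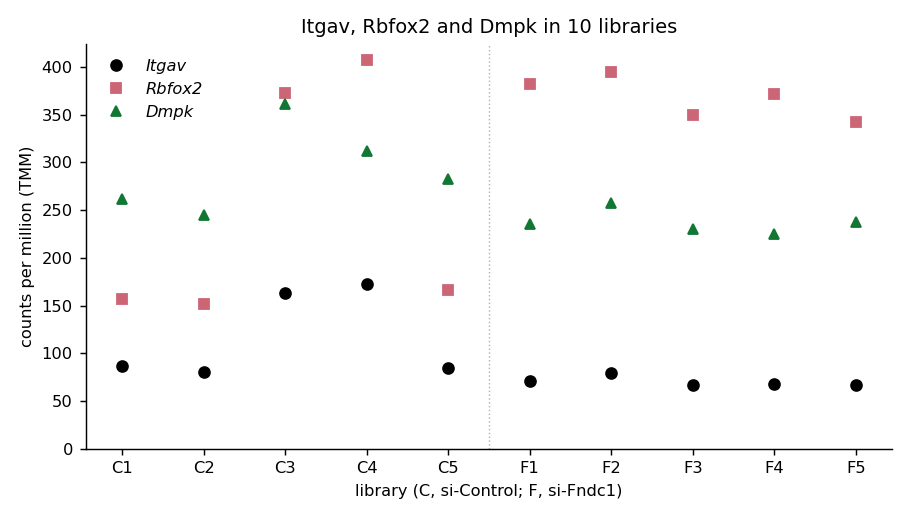
CPM of Itgav (circles), Rbfox2 (squares) and Dmpk (triangles) in each library, with C for si-Control and F for si-Fndc1. Itgav and Rbfox2 are both high in C3 and C4 compared with C1, C2 and C5, but Rbfox2 is also at 342 to 394 in the F libraries, where Itgav is at 66.6 to 79.8.

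By the same measure over 10 libraries the genes most like Itga5 were Esyt1, Tcirg1, Inf2, Cand2 and Rnf126 (r = 0.982 to 0.988), all of which fell. Those most like Itgb1 were Gyg, Znhit3, Gm6402, Ncaph and Denr (r = 0.965, 0.942, 0.931, 0.919 and 0.911), of which Gyg, Gm6402 and Denr rose and the others did not pass. The points of each correlation share the 2 groups and the libraries.

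Of 20 genes for RGD ligands 15 were tested, and 4 rose, 7 fell and 4 did not pass, beside 17.3% of all tested genes higher and 17.2% lower, with a median log2 fold change of -0.15. With the GC and length correction 4 rose and 4 fell, beside 11.3% and 11.4% of all genes. The motif is present in the GENCODE vM1 coding sequence of 18 of the 20 (not in mouse Tnc and Adam15), against 7.44% of all coding genes there. The genes were listed as RGD ligands, so this difference follows from the choice and is not a result. Those that fell were Fn1 (fibronectin, 2553 ± 96.2 to 2312 ± 107 FPKM), Fbn1 (fibrillin), Thbs1 (thrombospondin, 1186 ± 37.9 to 1021 ± 28.8 FPKM), Tnc (tenascin), Tgfb3, Mfge8 and Adam15, with log2 fold changes from -0.30 to -0.14. Spp1 (osteopontin, a ligand of several Itgav pairs) rose from 255 ± 20.2 to 397 ± 20.7 FPKM, with a log2 fold change of 0.65 ± 0.056 (SE), and Edil3 rose by 0.17 ± 0.058 (SE, edgeR adjusted p = 0.0421). Vtn (vitronectin) and Fga (fibrinogen alpha chain) rose from 0.038 ± 0.044 to 2.34 ± 1.11 FPKM and from 0.028 ± 0.042 to 2.30 ± 1.19 FPKM. Both are plasma proteins made by the liver, and their levels in si-Fndc1 replicates 1 to 5 (Vtn at 1.73, 2.43, 3.81, 2.85 and 0.870 FPKM) stood beside hepatocyte marker sums of 98.3, 182, 170.3, 174 and 51.9 FPKM. Whether they came from the C2C12 cells was not tested.

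All 5 tested genes of the list for latent TGF-beta carriers and their relatives (Ltbp1, Ltbp2, Ltbp3, Ltbp4 and Lrrc32) fell. The falls were 0.16 to 0.55 on the log2 scale (median -0.36), beside 17.2% of all tested genes lower. With the GC and length correction 1 of the 5 passed, beside 11.4% of all genes lower. Of 18 regulators that bind integrin tails 16 were tested, with 5 up, 6 down, 5 not passing and a median of -0.02, beside 17.3% of all tested genes up and 17.2% down. Itgb1bp2 (melusin, a muscle protein that binds the Itgb1 tail) rose from 23.9 ± 0.419 to 34.9 ± 1.93 FPKM, at 0.56 ± 0.040 (SE), and Rap1a, Rap1b, Cib1 and Apbb1ip also rose. Among those that fell were Tln1 and Tln2 (the talins that activate integrins), Flna and Flnc (filamins, which compete with talin) and Dok1, by 0.21 to 0.41, and Fermt2 (kindlin-2) at 0.03 did not pass. With the correction 3 rose and 1 fell, beside 11.3% and 11.4% of all genes. Of 19 genes for cleavage and trafficking of integrins 15 were tested, with 5 up (Rab4a, Rab5a, Rab11a, Rab21 and Cd9), 2 down (Cd63 and Cd151), 8 not passing and a median of 0.01, beside the same shares of all genes (34.4% either way), and with the correction 3 rose and 2 fell, beside 22.7% either way. Furin, which cleaves Itga5 and Itgav, was at 20.4 ± 4.89 and 15.1 ± 3.67 FPKM with a log2 fold change of -0.43 ± 0.20 (SE, edgeR adjusted p = 0.126). All list calls are by edgeR at an adjusted p of 0.05, over all 13548 genes or, with the correction, over 11185 genes.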

How the data were processed

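RNA-sequencing of 10 C2C12 libraries was analysed from 1 table deposited by the authors, with counts, not normalized and in whole numbers, and FPKM per gene. Very low counts may be rounded estimates. The FPKM, computed by the authors, divided each count by the library total and by 1 length per gene (relative SD across libraries 0.0921% at the 99th percentile of 7596 genes with over 1000 counts each). The sources differ on the aligner and build: the methods name TopHat, htseq-count and mm10, the design text STAR and mm9, and the submitters' processing notes cutadapt 1.9, FastQC and GRCm39. Gene coordinates are as listed and do not line up with the GRCm38.p6 positions of the windows before the start sites. Whether counting used strand is not given in the sources used here. The methods describe fewer libraries than the 10 analysed.

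Groups came from the sample labels. Counts of genes with a mean of at least 0.5 FPKM were tested with edgeR 4.0.16 (TMM, quasi-likelihood, Benjamini-Hochberg adjustment, R 4.3.3). Levels and ratios were compared by two-sided exact permutation tests (Python 3.11.15, scipy 1.17.1). Shares, pairs and lists were described without a test. Named genes were the 9 subunits, Fndc1, the fixed lists, overlapping genes and the 5 genes with the highest Pearson's r of log2 CPM (prior count 2) to Itga5, Itgav and Itgb1. Some genes of the lists are not reported here by name. The members and lists were chosen with earlier results of these data known. Alternatives used DESeq2 1.42.0, limma 3.58.1, upper quartile scaling, other filters, a replicate block, left-out libraries and a per-library trend over GC content and length. No 2 libraries of a group were near copies (lowest chi-square per degree of freedom over 20 pairs 40.4).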

Additional observations from a re-analysis of the deposited data

Results flagged for a closer look

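Dixon's test of the highest and lowest of 5 libraries was applied to 36 groups, the FPKM and the family share of each subunit in each group, and by chance about 1 in 20 such groups is marked. It marked 2 values, both of Itgb1. si-Control replicate 3 was at 315 FPKM, above 278 to 284 FPKM in the other 4 si-Control libraries, with a gap of 0.853 of the range. si-Fndc1 replicate 1 was at 376 FPKM, above 311 to 322 FPKM in the other 4 si-Fndc1 libraries, with a gap of 0.834 of the range. The first is the library by which the groups of Itgb1 overlapped. The fold change of Itgb1 kept its edgeR call without either of them. The share of Itgb1 in the beta sum was marked in neither library. Itgav was not marked by this rule, since its 2 high si-Control libraries lay close to each other.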

How the results depend on the processing

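Of 425 values recomputed under an alternative, 395 were classed as the same. For tested values this meant the same direction and side of the threshold. For shares it meant a move smaller than the spread between libraries. For counts of genes or libraries it meant a change within a fixed fold, so 3205 genes against 4663 were classed as the same. The count of genes past an adjusted p of 0.05, 4663, was 3205 to 5019 under the alternatives without the GC and length correction, 4000 to 4627 with 1 library left out, 2537 with the correction (4244 for the same genes uncorrected) and 1648 with it and the replicate block. With that correction the log2 fold changes were -0.019 for Itga5, 0.070 for Itgb1 and -0.042 for Itgb8, with the block as well -0.019, 0.069, -0.037 and -0.70 for Itgav. Only for Itga5, Itgb1 and Itgav did this end a call, and Itgb8 passed the test in no fit.

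No label says whether equal replicate numbers mark pairs. Deviations from the group means correlated at -0.055 to 0.064 for equal numbers and at -0.091 to 0.14 for unequal numbers. Such correlations cannot decide whether libraries were handled as pairs. With the replicate block alone 3572 genes passed, Itgav at -0.65 lost its call (edgeR adjusted p = 0.0655), and the log2 ratios of Itgb5 and Itgb3 to Itgb1 (-0.52 and -0.51) had an exact sign-change p of 0.0625, the smallest that 5 pairs allow. By limma Itgb1 was at 0.025.

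With 1 library left out, the log2 fold change of Itgav was -0.85 to -0.56, and the log2 of the ratio of mean FPKM was -0.86 to -0.57 for Itgav and -0.00022 to 0.11 for Itgb8 (exact permutation p = 0.00794 to 0.0714 and 0.0159 to 0.984). The log2 ratio of Itgav to Itga5 differed by -0.55 to -0.28 (exact permutation p = 0.0238 to 0.238). Without si-Control replicates 3 and 4 the shares of Itga5 and Itgav differed by 0.36 and -0.41 percentage points. As a share of counts Itgb3 differed by -0.82 points. The causes were not tested. At these depths only Itga8 was near the counting limit.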
